A study of Mus musculus with 12 samples.

Results

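This report compares 3 glioblastoma cell cultures from the G/tv-a mouse line, labelled mGC1_GFAP, with 3 from the C/tv-a line, labelled mGC3_CNP, out of 12 cultures measured on 1 array each. The 6 cultures were chosen by their labels, and the comparison runs over the 21780 probe sets that the array annotation pairs with exactly 1 gene symbol. All mice of the series were Arf-/-, so both sides lack Arf, a tumour suppressor product of Cdkn2a. All carried tv-a, which encodes the receptor of an avian virus, under the promoter of Gfap in G/tv-a mice, of Nes in N/tv-a mice and of Cnp in C/tv-a mice, as the names of the cultures give it. The tumours arose after chicken DF-1 cells that release the virus RCAS-PDGFB-HA were injected into adult brain, and the tumour cells were then grown adherently in stem cell medium without drug treatment. The remaining arrays hold 3 mGC2_NES tumour cultures from N/tv-a mice and 1 untransformed neural stem cell (NSC) culture from the subventricular zone of adult mice of each line. The labels number the tumour cultures as biological replicates and the series' text calls them independent, but nothing in them says whether the 3 cultures of a line came from 3 animals. Ages were not given.

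RCAS viruses infect only mammalian cells that make the tv-a receptor, so the promoter in front of tv-a sets which brain cells can be infected. Gfap encodes the intermediate filament of astrocytes and of adult stem cells, and Cnp encodes an enzyme of oligodendrocytes and their precursors. PDGFB drives cells of the oligodendrocyte precursor lineage through its receptor Pdgfra. The title of the series names its question, the effect of the cell of origin on glioblastoma cells. The tumours of a group all came from 1 mouse line, so the infected cell type and every other inherited difference between the lines cannot be told apart in the tumour cultures. For that reason each value is given with an NSC difference, the NSC G/tv-a value minus the NSC C/tv-a value. That difference rests on 1 array per line and carries no error of its own.

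The tumour cultures, labelled glioma stem cells, held high levels of oligodendrocyte precursor markers in both groups. Gfap was at background, unlike several other astrocyte markers, and the genes whose promoters define the lines were not called between the groups. On the log2 scale, Pdgfra read 13.37 ± 0.04 in mGC1_GFAP and 13.41 ± 0.07 in mGC3_CNP (SD, n = 3 each). The lineage transcription factors Sox10 and Olig2 read 12.62 and 12.34 in mGC1_GFAP and 12.61 and 12.37 in mGC3_CNP. In the G/tv-a and C/tv-a NSC cultures Sox10 read 8.12 and 8.03, but Olig2 read 12.36 and 12.48, much as in the tumour cultures. Gfap read 6.49, 6.49 and 6.50 in the mGC1_GFAP cultures and 6.27, 6.70 and 6.69 in the mGC3_CNP cultures. These Gfap values lie below 7.42, the highest reading of 4 spermatid transcripts taken as absent from all cultures (Prm2, Tnp1, Tnp2 and Odf1, lowest reading 5.6). Of 18 measured astrocyte markers, 8 had both group means at or below 7.42, Gfap among them. Others were high in mGC1_GFAP and mGC3_CNP, such as Aldoc (13.24 and 13.40) and Sox9 (11.60 and 11.09). Cnp read 12.48, 12.11 and 12.92 against 12.38, 12.53 and 12.38. The limma 95% interval of the difference, mGC1_GFAP minus mGC3_CNP, ran from -0.36 to 0.24 for Gfap, from -0.38 to 0.53 for Cnp and from -0.03 to 0.83 for the progenitor gene Nes. Pdgfb differed by -0.11 ± 0.10, Cdkn2a by -0.14 ± 0.23 and the neighbouring cell cycle inhibitor Cdkn2b by -0.65 ± 0.36 (estimate ± standard error), and none of these 7 fixed genes passed the test.

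Against this shared background, 106 probe sets of 98 genes were called at an adjusted p under 0.05 (limma on the 9 tumour arrays, Benjamini-Hochberg over 21780). This is 0.487% of all probe sets, with 0.275% higher and 0.211% lower in mGC1_GFAP. By gene, 52 were higher and 46 lower. The differences were of moderate size, with a median of 0.77 on the log2 scale, or 1.7-fold, and 29 of the 106 reached 2-fold (15 higher and 14 lower). The smallest called difference was 0.34. For all 106 the mGC1_GFAP and mGC3_CNP ranges were separate, which was also true of 19.4% of all probe sets. At an unadjusted p under 0.05 there were 2816 probe sets (12.9%). The largest adjusted p of a called probe set was 0.0495 and the smallest of one not called was 0.051. For 27 called probe sets the lower group mean lay at or below 7.42, so their differences are lower bounds with no order among them, and for 10 of these both means did.

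**Figure D1:**
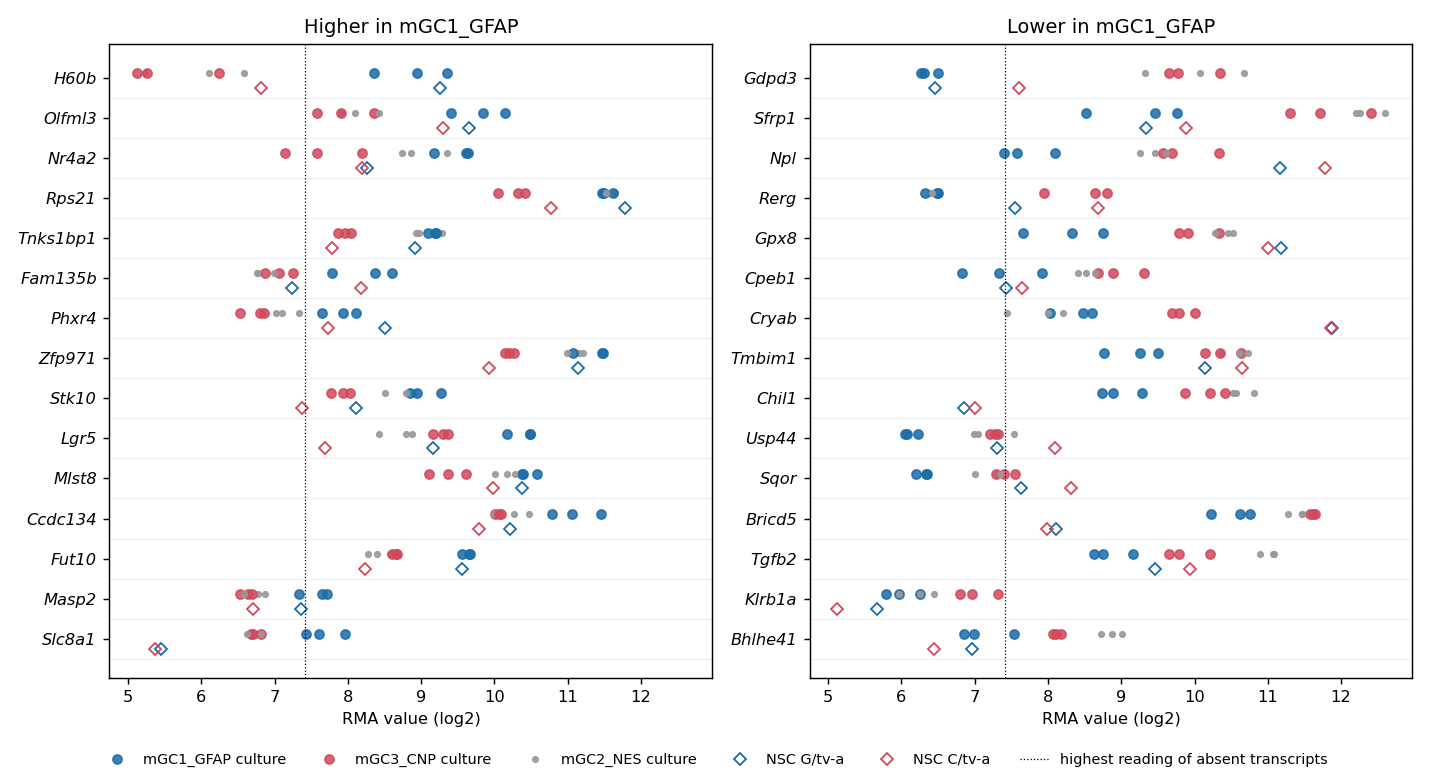
RMA values on a log2 axis for the 15 called genes with the largest measured rise (left) and the 15 with the largest measured fall (right) in mGC1_GFAP. Filled circles are single tumour cultures (blue mGC1_GFAP, red mGC3_CNP, small grey mGC2_NES), open diamonds the NSC cultures of the G/tv-a and C/tv-a lines, and the dotted line the reading of 7.42. The blue and red circles do not overlap in any row, while the diamonds lie in the same order as the circles for Rps21, Tnks1bp1, Zfp971 and Fut10 and almost coincide for Nr4a2 and Cryab.

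H60b, which encodes a ligand of the natural killer cell receptor NKG2D, was higher in mGC1_GFAP. It read 8.94, 8.36 and 9.36 in the mGC1_GFAP cultures and 5.13, 6.24 and 5.26 in the mGC3_CNP cultures. All mGC3_CNP values lie below 7.42, and all mGC1_GFAP values above it. The difference was at least 3.35 ± 0.40, or 10.2-fold (adjusted p = 0.0135). The NSC cultures differed the same way, with 9.26 in G/tv-a and 6.81 in C/tv-a, a difference of 2.44. Raet1d, the gene of another NKG2D ligand and a neighbour of H60b on chromosome 10, read 7.86, 7.28 and 9.25 against 5.30, 6.40 and 6.07. The groups did not overlap, but the difference of 2.20 ± 0.48 was not called (adjusted p = 0.101), and the NSC difference was 1.90. On the far side of Raet1d, the non-coding RNA gene Gm10825 was called at 2.65 ± 0.37 (adjusted p = 0.0251), with 8.95, 10.53 and 9.59 against 6.47, 7.46 and 7.20. It did not differ in this direction between the NSC cultures (-0.18).

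Because these neighbours were higher together, the 250 bases before the annotated start of Raet1d (chr10:22361644-22361893, plus strand) and of Gm10825 (chr10:22402563-22402812, plus strand) are shown, 5′ to 3′, from RefSeq on GRCm38.p6, with each CCAAT and GGGCGG in capitals, on either strand (ATTGG and CCGCCC on the other).
Raet1d: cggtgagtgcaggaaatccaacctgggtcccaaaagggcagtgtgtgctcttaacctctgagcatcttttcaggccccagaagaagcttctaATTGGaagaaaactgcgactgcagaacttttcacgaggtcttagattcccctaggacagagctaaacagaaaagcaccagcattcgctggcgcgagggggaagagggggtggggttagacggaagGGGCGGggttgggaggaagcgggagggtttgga
Gm10825: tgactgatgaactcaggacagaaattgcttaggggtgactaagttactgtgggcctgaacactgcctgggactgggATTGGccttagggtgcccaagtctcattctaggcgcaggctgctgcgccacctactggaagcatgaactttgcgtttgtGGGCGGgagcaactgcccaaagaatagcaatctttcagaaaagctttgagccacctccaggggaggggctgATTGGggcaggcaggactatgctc
The window of Raet1d held 1 CCAAT and 1 GGGCGG, and that of Gm10825 held 2 and 1. Among 32851 windows of this length in the table, CCAAT in either orientation was in 33.8%, GGGCGG in 32.7% and TATAAA in 12.4%. These 2 windows were identical at 123 of 250 bases (49.2%) in a global alignment, close to the 47.2% to 53.6% of the unrelated pairs among the promoters shown here. The matches describe the letters and are no evidence of a bound factor.

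Of 8 measured genes of the NKG2D ligand and MHC class I list, H60b was called and 7 were not. At an unadjusted p under 0.05, 2 were higher (H60b and Raet1d) and 4 lower, with a list median of -0.22 (median of all probe sets 0.003). The MHC class I gene H2-Q4 read 7.16 in mGC1_GFAP and 7.73 in mGC3_CNP (adjusted p = 0.149). Klrb1a, a natural killer receptor gene, was lower in mGC1_GFAP, with 6.26, 5.97 and 5.79 against 6.80, 6.96 and 7.32, but all of these values lie below the reading of absent transcripts. Of 15 measured interferon response genes 0 were called, against 0.487% of all probe sets, and 0 had an unadjusted p under 0.05, against 12.9%.

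Gdpd3, lower in mGC1_GFAP, encodes a glycerophosphodiesterase that releases lysophosphatidic acid from lysophospholipids. It read 6.31, 6.27 and 6.50 in the mGC1_GFAP cultures, all below 7.42, and 10.35, 9.66 and 9.77 in the mGC3_CNP cultures. The difference was at least 3.56 in size (-3.56 ± 0.30, adjusted p = 0.00344), or 11.8-fold higher in mGC3_CNP. Both NSC cultures were low or near the limit, at 6.46 in G/tv-a and 7.60 in C/tv-a, so the NSC difference had the same sign (-1.14). The mGC2_NES cultures read 10.02 ± 0.68 (SD, n = 3), like mGC3_CNP. The other 6 measured glycerophosphodiesterase genes were not called, among them Gdpd5 (-0.20 ± 0.11) and Gdpd1 (0.12 ± 0.13), and neither was any of 14 genes of lysophospholipid receptors and enzymes. The 250 bases before the annotated start of Gdpd3 (chr7:126766164-126766413, plus strand), shown because this gene separated the groups so widely, held 65.2% G and C against a median of 52.4% over all windows, and none of the 3 motifs.
Gdpd3: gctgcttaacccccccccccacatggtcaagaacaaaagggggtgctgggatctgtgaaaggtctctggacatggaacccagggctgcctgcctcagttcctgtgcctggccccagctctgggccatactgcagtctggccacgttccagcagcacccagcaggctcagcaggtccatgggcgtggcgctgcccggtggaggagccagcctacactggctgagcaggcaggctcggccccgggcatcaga

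The called genes included single members of the Wnt, BMP and TGF-beta lists. The Wnt antagonist Sfrp1 read 8.52, 9.76 and 9.46 in mGC1_GFAP and 12.40, 11.71 and 11.30 in mGC3_CNP, so that each mGC1_GFAP culture lay well below each mGC3_CNP culture. Sfrp1 fell by 2.56 on the log2 scale (± 0.34, adjusted p = 0.0205), or 5.9-fold, with an NSC difference of -0.55. The other 11 measured Wnt antagonists were not called, among them Wif1 (-0.20 ± 0.42) and Sfrp2 (0.06 ± 0.21). Lgr5, an R-spondin receptor that strengthens Wnt signals, was higher, with 10.48, 10.49 and 10.17 against 9.17, 9.30 and 9.37, a difference of 1.10 ± 0.13 (adjusted p = 0.0135). The NSC cultures differed by 1.48 in the same direction. Its relative Lgr4 read 8.16 against 8.63 and was not called (-0.48 ± 0.12, adjusted p = 0.136), and the other 19 measured members of the Wnt receptor list were not called either. None of 11 Wnt target genes was called, with a median of 0.01, where 0.487% of all probe sets were called.

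Olfml3, the gene of a secreted olfactomedin-like glycoprotein, was higher in mGC1_GFAP, with 9.84, 9.40 and 10.14 against 7.57, 8.35 and 7.91. The difference was 1.85 ± 0.23 (adjusted p = 0.0165), and the NSC difference 0.34. The growth factor gene Tgfb2 was lower by -1.03 ± 0.17 (adjusted p = 0.0385), with 9.17, 8.63 and 8.75 against 9.65, 10.21 and 9.78 and an NSC difference of -0.48. It was the only called gene of 23 in the BMP and TGF-beta list, and Tgfb1 (-0.10 ± 0.09) and Tgfb3 (0.30 ± 0.27) were not called. Chil1, which encodes a secreted chitinase-like protein used as a marker of mesenchymal glioblastoma, read 9.28, 8.89 and 8.74 against 10.21, 10.42 and 9.87. It was lower by -1.20 ± 0.17 (adjusted p = 0.0256), with a small NSC difference of -0.15. Both NSC values lay below 7.42. The other 21 measured mesenchymal genes were not called, and their list had a median of -0.04. At an unadjusted p under 0.05, 4 genes of the list were lower, Chil1 among them, and 0 higher, against 7.2% and 5.9% of all genes. The largest of these after Chil1 was Bhlhe40 (-1.06 ± 0.34, adjusted p = 0.225). Cd44, the hyaluronan receptor in that list, read 7.38 against 7.58 and was not called.

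Among enzymes and stress proteins, Npl, which cleaves sialic acid, read 7.58, 7.39 and 8.10 in mGC1_GFAP and 9.69, 9.57 and 10.33 in mGC3_CNP. Npl was lower by -2.18 ± 0.23 (adjusted p = 0.00907), with an NSC difference of -0.61, while the sialic acid synthesis genes Gne (0.10 ± 0.08) and Nans (0.03 ± 0.10) were not called. At an unadjusted p under 0.05, 3 genes of the sialic acid list were lower and 0 higher. Beside Npl these were Neu1 (-0.28 ± 0.09) and Neu4 (-0.55 ± 0.23), neither called. The glutathione peroxidase family gene Gpx8 read 7.66, 8.32 and 8.75 against 9.91, 10.34 and 9.79, a difference of -1.77 ± 0.25 (adjusted p = 0.0251). The NSC cultures did not share this direction (0.17). The small heat shock protein gene Cryab read 8.48, 8.61 and 8.03 against 9.69, 10.01 and 9.79, a difference of -1.46 ± 0.21 (adjusted p = 0.0256), and 11.87 in both NSC cultures. Npl, Gpx8 and Cryab were the only genes called in their lists, out of 12 sialic acid, 12 glutathione peroxidase and peroxiredoxin and 8 small heat shock genes measured.

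Sqor, the mitochondrial sulfide oxidising enzyme, was lower at 6.35, 6.34 and 6.20 against 7.40, 7.29 and 7.55, with an NSC difference of -0.68. The difference was -1.12 ± 0.11 (adjusted p = 0.00705), but both group means, 6.29 and 7.41, lie below 7.42, so neither group was clearly above background. Fut10, a fucosyltransferase gene, was higher at 9.65, 9.67 and 9.56 against 8.65, 8.61 and 8.67. Its spread within groups was small, the difference was 0.98 ± 0.08 (adjusted p = 0.00344), and the NSC difference was 1.32. Srxn1, which reactivates peroxiredoxins, was called at -0.34 and was the only called gene of 20 measured in the drug transport and detoxification list. Its NSC difference was -0.74.

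Regulators of transcription, translation and growth were found on both sides. The nuclear receptor gene Nr4a2 read 9.17, 9.64 and 9.61 in mGC1_GFAP and 7.15, 7.59 and 8.19 in mGC3_CNP, a difference of 1.83 ± 0.26 (adjusted p = 0.0256) that the NSC cultures did not show (0.07). Its relatives and other immediate early genes were not called, with Nr4a1 at -0.20 ± 0.14, Nr4a3 at 0.00 ± 0.19 and Egr1 at -0.01 ± 0.06. Egr2 (-0.78 ± 0.18, adjusted p = 0.116) and Ier3 (-1.16 ± 0.40, adjusted p = 0.259) were lower at an unadjusted p under 0.05. Cpeb1, which controls cytoplasmic polyadenylation of messenger RNA, was lower by at least 1.60 in size (-1.60 ± 0.25, adjusted p = 0.0355), with 7.34, 6.82 and 7.92 against 9.31, 8.89 and 8.68. The RAS-like growth inhibitor Rerg read 6.49, 6.51 and 6.32 against 7.94, 8.64 and 8.80, so that it was near background in mGC1_GFAP and above it in mGC3_CNP. The difference was -2.02 ± 0.19 (adjusted p = 0.00583) and the NSC difference -1.13.

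The kinase gene Stk10 was higher at 9.27, 8.94 and 8.85 against 7.94, 8.02 and 7.77, by 1.11 ± 0.14 (adjusted p = 0.0144), with an NSC difference of 0.73. Tmbim1, of a family of membrane proteins that restrain cell death, was lower by -1.20 ± 0.19 (adjusted p = 0.0383), with 9.50, 8.77 and 9.25 against 10.63, 10.14 and 10.35 and an NSC difference of -0.50. The deubiquitinase gene Usp44 (-1.15, NSC -0.79) and the clock repressor gene Bhlhe41 (-0.996, NSC 0.51) were lower. The Bhlhe41 means were 7.12 for mGC1_GFAP against 8.12, whereas both Usp44 means, 6.12 and 7.27, lie below 7.42. The remaining named rises were Fam135b (1.19, NSC -0.93), Phxr4 (1.16, NSC 0.77), Ccdc134 (1.04, NSC 0.43), the complement protease gene Masp2 (0.95, NSC 0.65) and the sodium-calcium exchanger gene Slc8a1 (0.94, NSC 0.08). 4 of these 5 had mGC3_CNP means below 7.42, the exception being Ccdc134 at 10.06.

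Of 31 measured cytosolic ribosomal protein genes, 2 were called. Rps21, of the small ribosomal subunit, read 11.50, 11.47 and 11.61 in mGC1_GFAP and 10.32, 10.05 and 10.42 in mGC3_CNP. It was higher by 1.26 ± 0.10 (adjusted p = 0.00344), and a second probe set named Rps21 was also called, at 0.64. The NSC difference at the first was 1.00. Rps2 was higher by 0.79 ± 0.12 (adjusted p = 0.0289), with means of 13.59 and 12.80 and an NSC difference of 0.72. The other 29 measured ribosomal protein genes were not called, and the list's median was 0.05. Ribosomal protein genes have many near-identical copies in the genome, so the gene that gave the signal is uncertain. Tnks1bp1, the gene of a tankyrase-binding protein, read 9.18, 9.21 and 9.09 against 7.86, 7.97 and 8.04, a difference of 1.21 ± 0.10 (adjusted p = 0.00344) with 1.12 between the NSC cultures.

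The NSC difference was then set beside every called gene. Of the 98 called genes, 76 (77.6%) had an NSC difference of the same sign, against 51.5% of all genes. An NSC difference of the same sign and at least 0.5 in size was found for 30 of the 98 (30.6%), against 2.3% of all genes, and one of the opposite sign for 3 (Fam135b, Klrb1a and Bhlhe41). Among 1343 genes that were not called but differed by at least 0.34 between the tumour groups, 8.8% had such a same-sign NSC difference. Any NSC difference of the same sign was found for 56.7% of them. No floor was set on the NSC values in these counts. For Klrb1a (5.67 in G/tv-a and 5.12 in C/tv-a) and Bhlhe41 (6.96 and 6.45) both NSC values lay below 7.42. Pearson's r between the tumour and the NSC difference was 0.136 over all genes and 0.47 over the 98, as a description only, since genes of 1 array share that array. The tumour and NSC differences share no array. At the other end, 34 called genes had an NSC difference under 0.2 in size. Of these, 7 differed by at least 2-fold between the tumour groups, namely Nr4a2, Gpx8, Cryab, Chil1, Bricd5 and the predicted genes Gm10825 and E330020D12Rik. Whether their difference arose with the tumour or with the culture was not tested.

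**Figure D2:**
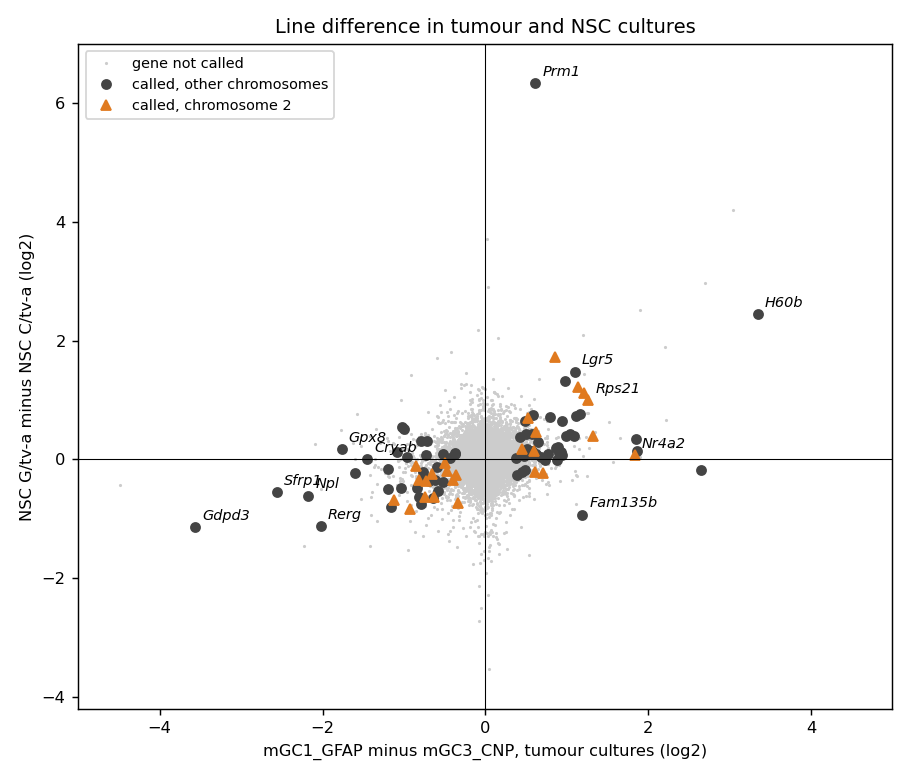
Each point is 1 gene, with the difference between the tumour groups (mGC1_GFAP minus mGC3_CNP, log2) on the horizontal axis and the difference between the NSC cultures (G/tv-a minus C/tv-a, log2) on the vertical axis. Grey dots are genes not called, dark circles called genes and orange triangles called genes of chromosome 2. Of the 98 called genes, 76 lie in the upper right or lower left part of the plot, and Prm1 stands apart at 6.34 on the vertical axis.

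The third line was then set beside the same genes. Among the 30 called genes with an NSC difference of at least 0.5 and the same sign, the mGC2_NES mean and the N/tv-a NSC value lay nearer to the same one of the lines G/tv-a and C/tv-a for 26 (86.7%), against 51.6% of all genes. Of 118 genes that were not called, with a tumour difference of at least 0.34 and an NSC difference of the same sign and at least 0.5 in size, 63.6% did so. The 118 were not matched to the 30 in the size of their differences, so these shares are a description only. For 18 of the 26 both were nearer to C/tv-a and for 8 nearer to G/tv-a. Fut10 is of the first kind, with 8.41 in mGC2_NES and 8.17 in N/tv-a NSC, both near the low C/tv-a values of 8.64 and 8.23. Rps21 is of the second kind, with 11.56 in mGC2_NES and 11.94 in N/tv-a NSC, beside 11.53 and 11.78 in G/tv-a. Tnks1bp1 was like Rps21, with 9.06 and 9.10 beside 9.16 and 8.91. Over all 98 called genes the mGC2_NES mean was nearer to mGC3_CNP for 74 (75.5%) and nearer to mGC1_GFAP for 24. This compares with 56.3% of all genes, and with 65.9% of the genes whose groups did not overlap.

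The called genes were unevenly spread over the genome. Chromosome 2 held 25 of the 98 called genes (25.5%) but 8.73% of the genes tested. On it 1.44% of 1732 genes were called, against 0.403% of 18119 genes elsewhere. Of these 25 genes, 12 were higher and 13 lower in mGC1_GFAP, so the excess had no direction, and 23 had an NSC difference of the same sign. Their differences ran from 0.34 to 1.83 in size, with a median of 0.70. Besides Nr4a2, Rps21, Tnks1bp1 and Sqor they included Ndufaf1, an assembly factor of respiratory complex I, which was higher by 0.85 with an NSC difference of 1.72. On chromosome 2, mGC2_NES was nearer to mGC3_CNP for 15 genes and nearer to mGC1_GFAP for 10. The next highest share of called genes was on chromosome 1, with 10 called genes of 1121 (0.892%), and all 10 had an NSC difference of the same sign. No test of the spread over chromosomes was made, because neighbouring genes are not independent.

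**Figure D3:**
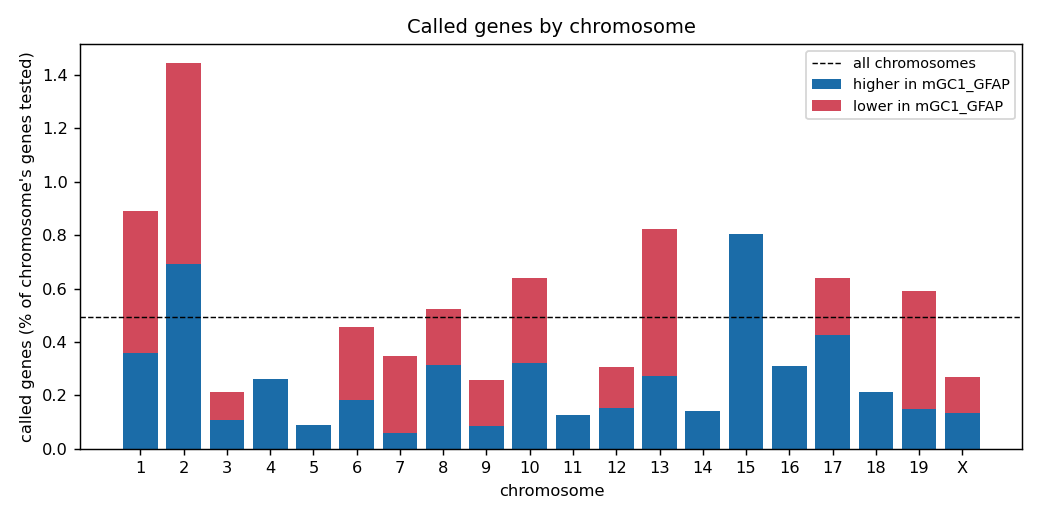
Called genes as a percentage of the genes tested on each chromosome, with bars starting at 0 and split into genes higher (blue) and lower (red) in mGC1_GFAP; the dashed line is the share over the chromosomes drawn, and chromosome Y, with 0 of 9 genes called, is left out. Chromosome 2 stands highest at 1.44%, with 12 genes higher and 13 lower.

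Some called genes lay near each other. With neighbours defined as at most 10 tested genes apart, 35 of the 98 called genes fell into 17 runs, of which 6 runs with 13 genes were on chromosome 2. In 11 runs the members differed in the same direction, and in 6 runs they differed in opposite directions. Of the 35 genes, 28 had an NSC difference of the same sign, and so did 77.6% of all 98 called genes. How many runs 98 genes would form without any grouping was not tested, so the number of runs has no baseline. On chromosome 17 the adjacent genes Rnf151 and Rps2 differed by -0.65 and 0.79 in the tumour cultures. The NSC differences were -0.65 and 0.72. Both tumour means of Rnf151, 6.75 in mGC1_GFAP and 7.40 in mGC3_CNP, lie below 7.42, so neither group was clearly above background. On chromosome 2, Crat, the gene of an acetylcarnitine transferase, and 1700001O22Rik were lower by -0.64 and -0.92, with NSC differences of -0.64 and -0.83. Aqr and Dph6 lay close to each other there with opposite signs, 0.45 and -0.74, and NSC differences of 0.18 and -0.63.

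In other runs the NSC differences were smaller than those of the tumour cultures or of the opposite sign. Mlst8, a subunit of the mTOR kinase complexes, was higher with 10.58, 10.38 and 10.39 against 9.37, 9.11 and 9.62. Its neighbour Bricd5 was lower with 10.62, 10.76 and 10.22 against 11.64, 11.61 and 11.58. The differences of 1.08 ± 0.13 and -1.08 ± 0.13 (adjusted p = 0.0135 each) were of like size and opposite sign, and the NSC differences were 0.39 and 0.12. The gene models of Mlst8 and Bricd5 overlap in the RefSeq table, so a probe of either may have read both transcripts, which was not tested. Npl and E330020D12Rik on chromosome 1 differed by -2.18 and 1.87, with NSC differences of -0.61 and 0.14. Sfrp1 (-2.56, NSC -0.55) had Ap3m2 as its called neighbour at -0.37, with an NSC difference of 0.09. RMA values combine the amount of transcript with the binding of the probes, and a base difference between the mouse lines under a probe would change the value. No probe sequences or genotypes were used here, and the part of such differences in these calls was not tested.

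**Figure D4:**
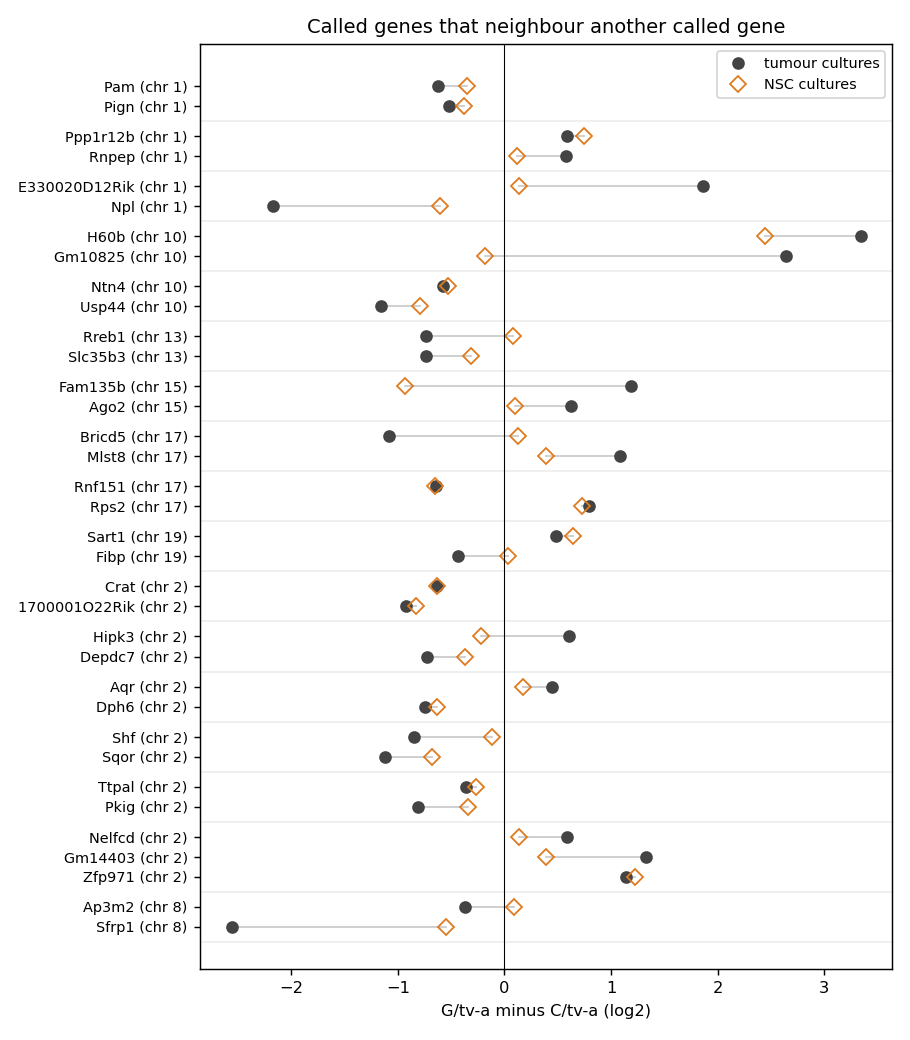
The 35 called genes that lie within 10 tested genes of another called gene, grouped by run and in chromosome order within a run. Filled circles give the difference between the tumour groups and open diamonds that between the NSC cultures (both G/tv-a minus C/tv-a, log2). The pairs for Crat, Rnf151, Rps2 and Zfp971 almost coincide, though both tumour means of Rnf151 lie below 7.42.

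A run near the end of the gene order of chromosome 2 joined the similar genes Zfp971 and Gm14403 with Nelfcd (0.59, NSC 0.14). The zinc finger gene Zfp971 on chromosome 2 read 11.47, 11.08 and 11.48 in mGC1_GFAP and 10.20, 10.27 and 10.15 in mGC3_CNP, with 11.15 and 9.92 in the NSC cultures. It was higher by 1.14 ± 0.11 (adjusted p = 0.00815), with an NSC difference of 1.22. The non-coding gene Gm14403 was higher by 1.33 ± 0.16 (adjusted p = 0.0135), with an NSC difference of 0.39. Since they were higher together, the 250 bases before the annotated start of Zfp971 (chr2:178023034-178023283, plus strand) and of Gm14403 (chr2:177497976-177498225, plus strand) are shown from RefSeq on GRCm38.p6, with CCAAT, read on either strand, in capitals.
Zfp971: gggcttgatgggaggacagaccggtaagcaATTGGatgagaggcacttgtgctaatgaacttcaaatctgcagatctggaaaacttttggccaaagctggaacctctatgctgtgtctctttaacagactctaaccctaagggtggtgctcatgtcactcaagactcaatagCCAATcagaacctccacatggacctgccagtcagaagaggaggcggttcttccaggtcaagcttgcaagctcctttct
Gm14403: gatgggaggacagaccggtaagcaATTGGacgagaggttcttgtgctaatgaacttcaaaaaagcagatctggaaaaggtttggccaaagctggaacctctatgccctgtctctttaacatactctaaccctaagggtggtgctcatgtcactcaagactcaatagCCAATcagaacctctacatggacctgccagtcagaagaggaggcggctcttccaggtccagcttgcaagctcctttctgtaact
The windows were identical at 230 of 250 bases (92.0%), and each held 2 CCAAT matches. Zfp971 and Gm14403 belong to a cluster of similar zinc finger genes, so the member that gave each signal is uncertain.

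The difference between the lines was also compared between tumour and NSC cultures, as the tumour difference minus the NSC difference, fitted on all 12 arrays with the lone NSC arrays assumed to vary like tumour cultures. There were 46 called probe sets (0.211%, 30 higher and 16 lower), and 1689 had an unadjusted p under 0.05. These were nearly all genes that differed between the NSC cultures and were not called between the tumour groups. Only Prm1 of the 46 was also called between the tumour groups, the largest tumour difference among the others was 0.35 in size, and 32 had both tumour means at or below 7.42. Rgs8, a regulator of G protein signalling, read 6.97 and 6.93 in the tumour groups but 7.70 in G/tv-a and 11.22 in C/tv-a NSC. The astrocyte and stem cell receptor gene Gpr37l1 read 12.31 and 12.50 in the tumour groups and 11.88 and 10.75 in the NSC cultures, but lost its call under 11 of 14 alternatives. This test holds the same tumour difference by which the 98 genes were chosen, so its p-values for those genes are no independent evidence. For the other named genes a missed threshold does not show that the tumour and NSC differences were equal, since the standard error was 0.81 for H60b and 0.20 for Rps21.

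Prm1, which encodes a sperm protamine, was the exception. It read 13.49 in the G/tv-a NSC culture and 7.15 in the C/tv-a and 7.21 in the N/tv-a NSC culture. In the tumour cultures it read 7.77, 7.66 and 7.75 in mGC1_GFAP and 7.13, 7.15 and 7.06 in mGC3_CNP, and 7.23 ± 0.11 in mGC2_NES (SD, n = 3). The mGC1_GFAP values lay above 7.42 in every culture and the mGC3_CNP values below it, with a difference of at least 0.61 ± 0.07 (adjusted p = 0.0135). The neighbouring protamine gene Prm2 read between 7.27 and 7.42 in all 6 tumour cultures and 7.39 in both NSC cultures. A Prm1 segment is a common part of transgene constructs in mice. The labels do not say whether the G/tv-a transgene holds one, and its part in these values was not tested.

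The fixed gene lists gave few calls and mostly 1 gene each. None of the 8 lists of cell type markers held a called gene, where 0.487% of all probe sets were called. Lists this short would mostly hold none at that share, so their lack of calls says little about the markers. The medians of the 8 lists lay between -0.01 for astrocyte and for microglia markers and 0.07 for differentiated oligodendrocyte markers, against 0.003 for all probe sets. Microglia, endothelial and pericyte markers were mostly at or below 7.42 in both groups, with 11 of 14, 8 of 10 and 8 of 11 genes. The medians of the arrays compared were 7.6 to 7.63, little above 7.42. Many probe sets of any kind therefore read this low, and their share was not counted. The macrophage gene Cd68 read 8.07 against 7.71 and was not called (0.35 ± 0.07, adjusted p = 0.0696). The myelin gene Mbp read 9.50 against 9.01 (0.49 ± 0.48) and the calcium-binding protein gene S100b 11.57 against 12.01 (-0.43 ± 0.14), neither called. Of the DNA replication genes 10 of 20 had an unadjusted p under 0.05, all higher in mGC1_GFAP, and the list median was 0.21. Over all genes 5.9% were higher at that level. No member was called, and the replication factor genes Cdt1 (0.36 ± 0.10, adjusted p = 0.188) and Mcm5 (0.27 ± 0.07, adjusted p = 0.159) are examples. Mitosis genes had a median of 0.07 and 0 calls in 19.

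Some large differences with wide standard errors did not pass the test. The Notch target Hes1 read 7.74 against 9.36 (-1.62 ± 0.36, adjusted p = 0.102), and the matrix link protein gene Hapln1 8.52 against 10.61 (-2.09 ± 0.66, adjusted p = 0.221). The proteoglycan gene Vcan differed by -1.40 ± 0.52 (adjusted p = 0.299), and the Hedgehog pathway genes Gli3 and Hhip by -1.13 ± 0.25 (adjusted p = 0.105) and 1.35 ± 0.45 (adjusted p = 0.241). The laminin gene Lamc1 (0.55 ± 0.10, adjusted p = 0.0701) and the Wnt receptor gene Fzd8 (-0.56 ± 0.11, adjusted p = 0.0698) lay just above the threshold. There were 0 calls among PDGF ligands and receptors, 12 ERK feedback genes, 12 CDK inhibitors and D cyclins, 24 Hox genes and 11 forebrain patterning genes. Over all probe sets 0.487% were called. In 15 hypoxia and glycolysis genes the median was -0.34, with 0 called and 0 at an unadjusted p under 0.05. The mean of these genes per culture overlapped between the groups, from 8.95 to 9.24 in mGC1_GFAP and from 8.93 to 10.17 in mGC3_CNP.

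**Figure D5:**
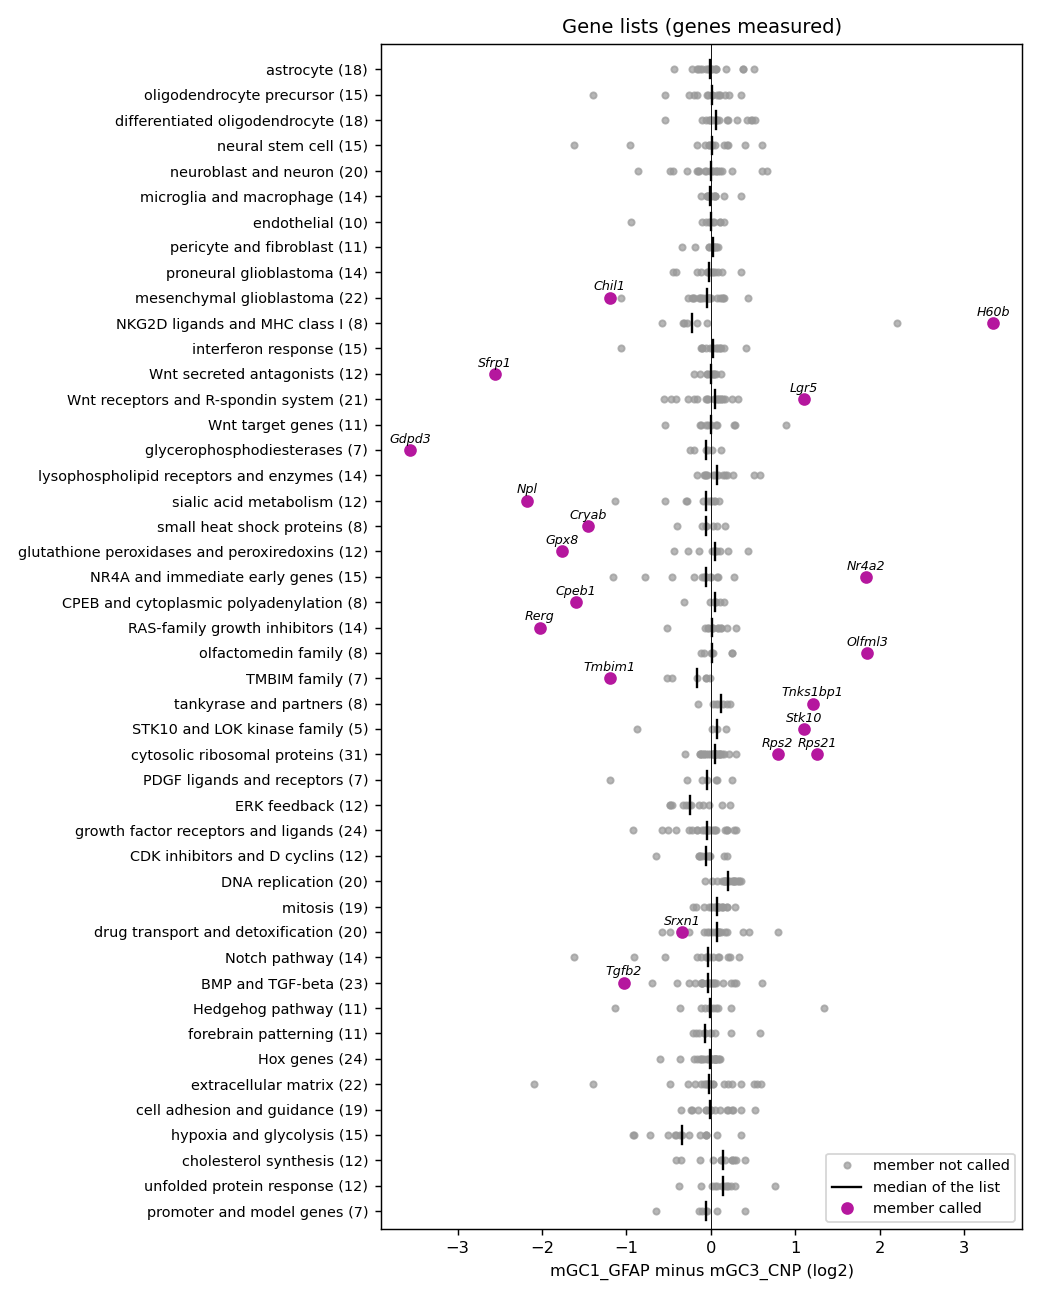
Difference between mGC1_GFAP and mGC3_CNP (log2) for the members of each gene list, with the number of genes measured in parentheses. Grey points are members not called, magenta points called members with their symbols, and black ticks list medians. No list of cell type markers holds a called gene, where 0.487% of all probe sets were called. Called members stand alone apart from Rps2 and Rps21.

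The number of calls depended on single cultures. It was 30, 52 and 38 without mGC1_GFAP replicate 1, 2 and 3, and 65, 44 and 24 without mGC3_CNP replicate 1, 2 and 3. Without mGC2_NES replicate 1, 2 and 3, which enter only the estimate of the spread, it was 106, 49 and 46. The share of called genes on chromosome 2 stayed between 19.6% and 34.8%, and the share with an NSC difference of the same sign between 79.3% and 95.2%. Of the 30 named rises and falls, Rps21, Tnks1bp1, Zfp971, Fut10, Gdpd3, Npl and Rerg were called under all 19 alternatives tried, and Sqor under the 18 that kept it, since the filter on dim probe sets removed it. All 8 had an NSC difference of the same sign, between 0.61 and 1.32 in size, whereas 8 of the other 22 had one of the same sign and at least 0.5.

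The groups also differed in sex-linked transcripts. The mean of 4 Y-linked genes (Eif2s3y, Kdm5d, Uty and Ddx3y) was 8.75 and 8.57 in mGC1_GFAP replicates 1 and 2, 4.86 in replicate 3, and 4.77 to 4.96 in the mGC3_CNP cultures. Xist, the X inactivation transcript, read 12.60 in mGC1_GFAP replicate 3 and 11.91 to 12.61 in mGC3_CNP. Both kinds of transcript were present in the NSC culture of G/tv-a, with a Y-linked mean of 8.39 and Xist at 11.86, and the C/tv-a culture had Xist at 12.28 and a Y-linked mean of 5.15. Only replicate 3 of mGC1_GFAP shares the Xist state of mGC3_CNP, which is too few cultures for a comparison within that state. With the Y-linked mean as a covariate 32 probe sets of 31 genes were called, 23 of the 98 genes among them.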

How the data were processed

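Each culture was measured on 1 Affymetrix whole-transcript array. The authors deposited log2 values per probe set from RMA (Affymetrix Expression Console), as the submitters' processing notes state. RMA corrects background, gives every array the same distribution and summarises the probes, which hides any shift common to most genes. The annotation's genome build is not given in the sources. Arrays hold no read depth, and their number limits the precision.

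Of 28270 probe sets, 21780 have exactly 1 symbol in the platform annotation of 2016 (19934 symbols), 1617 have several and 4873 are not listed. RefSeq identifiers (GRCm38.p6) matched 21689 and gave chromosome and gene order. Promoter sequences came from RefSeq on GRCm38.p6, where 21 of the 30 named rises and falls had an entry.

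Groups were taken from the labels. Tests used limma 3.58.1 in R 4.3.3 (lmFit, eBayes, two-sided) on the 9 tumour arrays in 3 groups, so mGC2_NES adds to the estimate of the spread (6 residual degrees of freedom). The spread behind each p-value is that between these cultures, which may be partly technical. A gene with several probe sets was counted by the smallest p. The rule named the 15 largest rises and 15 largest falls among called genes without overlap, 5 and 5 for the tumour minus NSC difference, 7 fixed genes, called members of lists or up to 4 members by smallest p, and called genes within 10 tested genes of another. Predicted genes were counted, and named only beside a neighbour. The members, lists and rules were chosen with earlier results of these data known, and some lists were built around genes already seen to differ, so their counts are not independent evidence. Scripts were tested on simulated data. Replicate numbers were not used to pair the samples, since the labels do not say that a number marks a shared animal, litter or day. Deviations of same-numbered mGC1_GFAP and mGC3_CNP cultures correlated at 0.037, 0.254 and 0.029. Those of mGC2_NES and mGC3_CNP, which share the fit, did so at 0.165, 0.254 and 0.132. These values do not settle whether the numbers mark a pairing. Alternatives changed the arrays fitted, scaling, filter, variance prior, array weights, probe set averaging, a Y-linked covariate and the replicates.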

Additional observations from a re-analysis of the deposited data

Results flagged for a closer look

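The difference between the lines itself differed between tumour and NSC cultures for 10 named genes, by the interaction test in limma on all 12 arrays, with 1 NSC array per line assumed to vary like tumour cultures. The standard errors therefore hold the spread of tumour cultures and none of NSC cultures. The tumour minus NSC difference was higher for Rgs8 (3.57 ± 0.24), the retinoic acid binding protein gene Crabp1 (2.64 ± 0.16), the receptor kinase gene Met (2.45 ± 0.13), the galectin gene Lgals3 (2.31 ± 0.18) and the interferon-inducible gene Ifi203 (2.05 ± 0.22). It was lower for Prm1 (-5.73 ± 0.15), Zfp979 (-3.69 ± 0.23), the vesicle GTPase gene Rab26 (-2.88 ± 0.17), the carbonic anhydrase gene Car3 (-2.26 ± 0.21) and Gpr37l1 (-1.32 ± 0.19). For 6 of them (Rgs8, Met, Ifi203, Zfp979, Rab26 and Car3) both tumour means lay at or below 7.42, so these values describe the NSC arrays, beside no tumour difference that could be measured above background. Gpr37l1 lost the call under 11 of 14 alternatives, with a largest adjusted p of 0.089 in that test.

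For the 5 genes in the first direction, the G/tv-a NSC culture read lower than both other NSC cultures, as with Met at 5.83 against 8.34 in C/tv-a and 9.14 in N/tv-a. For the 5 in the other direction it read higher than both, as with Zfp979 at 7.44 against 3.73 and 3.63. Over the 45 genes called in this test the N/tv-a NSC culture was nearer to C/tv-a for 34 and nearer to G/tv-a for 11. The G/tv-a NSC culture is also the one with both Xist and Y-linked transcripts, whose part in these values was not tested.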

How the results depend on the processing

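The 106 calls between the tumour groups became 27 with only the 6 arrays compared, 195 with array weights and 32 with the Y-linked mean as a covariate, while the count stayed within 1.5 times under the other planned fits of all samples (74 to 115). Of the 98 genes, 23 stayed called with the 6 arrays, 23 with the Y-linked covariate and all 98 with array weights. All 12 arrays gave the same 106, because lone NSC arrays add nothing to the spread. Leaving out 1 tumour culture at a time gave 24 to 106. With the replicate number as a replicate block there were 74 calls, 55 of the 98 genes among them, and 33 in place of 46 for the tumour minus NSC difference. The shares chosen after seeing the data kept their size on chromosome 2 (19.6% to 34.8%), and the share with an NSC difference of the same sign was 96% with 6 arrays, 71% with the Y-linked covariate, 74.9% with array weights and 79.3% to 95.2% without 1 culture. The 46 tumour minus NSC calls became 11 with the filter on dim probe sets (a mean above 7, which kept 13779), and 32 to 40 without 1 culture. The NSC arrays took the first block level in the replicate block, which leaves their difference as it is. Differences that were not called reversed for Cdkn2a (0.029 with the Y-linked covariate), Cnp (-0.138 without mGC1_GFAP replicate 3, range -0.138 to 0.27 without 1 culture) and Gfap (0.014 and 0.007 without mGC3_CNP replicate 2 and 3, range -0.2 to 0.014). None of the 30 named rises and falls reversed, and 22 lost the call under at least 1 alternative. Among the named tumour minus NSC differences only Gpr37l1 lost the call, under 11 of 14 alternatives. The causes were not tested.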
